A study of Homo sapiens with 4 samples.

Results

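The 10 genes described here encode the enzymes, cargo and membrane protein of dense-core secretory vesicles: the convertases PCSK1 and PCSK2, the carboxypeptidase CPE, the chaperone SCG5, the peptide precursors GAL and VGF, the granins CHGA, CHGB and SCG2, and the vesicle membrane protein PTPRN. They were found by symbol among the 62649 genes of the count files, and all 10 were present. The set was chosen by the rise of PCSK1, PTPRN and GAL in resistant cells, so the contrast of resistant with control cells had been used in choosing it. The values of the 10 genes in that contrast are therefore a description. Where the fit over all genes called some of them, the count is given for completeness and is not evidence, since the choice of genes had fixed it in part.

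The libraries came from A375, a human melanoma line with an activating BRAF mutation, grown in serum-containing medium. Control cells were the parental line (2 libraries). Resistant cells had been selected on vemurafenib, an inhibitor of the mutant kinase, whose concentration was doubled weekly from 0.1 to 6.4 µM (2 libraries). The labels do not state whether the inhibitor was still in the medium when RNA was taken, or whether the resistant line is a clone. The protocols also describe sorafenib and pioglitazone, but no sample title names either drug. Nothing says that the 2 libraries of a group were separate cultures, so the p-values rest on the difference between those libraries alone, which may be technical.

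Peptide hormones are made as large precursors that enter immature vesicles at the trans-Golgi. There convertases cut after pairs of basic residues, a carboxypeptidase removes those residues, and acidic granins condense with the product until a stimulus releases the vesicle. This route is typical of endocrine cells and neurons, and is not a defining feature of melanocytes or of melanoma.

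Library totals ran from 68022689 to 87178097 counts. Control replicate 1 held 0 odd counts over all genes, unlike the other 3 libraries. Control replicate 2 was above control replicate 1 in 9 of the 10 members, CHGA being the exception, and in 51.1% of all tested genes. It was therefore the control nearer to resistant cells for the 7 members that were higher there, and the farther one for SCG5. The melanoma marker SOX10 stood at 704 and 1149 CPM (the count scaled to library size, with TMM factors) in the controls and 969 and 864 in resistant cells, whereas the pigment genes TYR and DCT did not exceed 0.279 CPM in any library. Over the 10 melanoma markers listed, 4 log2 fold changes were positive and 6 negative, from -0.86 to 0.41 (median -0.08). Neither edgeR nor DESeq2 called any of them. Their summed level was 1082 and 1650 CPM in controls and 1437 and 1308 CPM in resistant cells. Among 9 markers of neuroendocrine cells other than the members, INSM1 had 0 counts in all 4 libraries, and UCHL1 and STMN2 had at most 6 counts in any library. The summed level of the 9 was 106 and 102 CPM in controls and 120 and 89.6 CPM in resistant cells, nearly all of it ENO2, a glycolytic enzyme gene that many cell types express. Of the 5 tested neuroendocrine markers, 4 had negative log2 fold changes (median -0.17). The 1 positive value was that of SYP, the gene of a vesicle membrane protein. SYP had 0.615 and 0.935 CPM in controls and 2.00 and 2.08 CPM in resistant cells (adjusted p = 0.136 in edgeR). It was the 1 marker of the 5 that DESeq2 called higher, against 2.51% of all tested genes. DESeq2 called none of the 5 lower, and edgeR called none in either direction. Summed fibroblast markers gave 14.9 and 11.2 CPM in controls and 11.8 and 10.6 CPM in resistant cells. COL1A1 made up the largest share, with 7.80 and 4.61 CPM, then 7.54 and 7.49 CPM. Of the 5 tested fibroblast markers 4 had negative log2 fold changes (median -0.83); LUM had 2.18 and 1.43 CPM in controls and 0.366 and 0.145 CPM in resistant cells (adjusted p = 0.0569 in edgeR, called lower by DESeq2), and DCN and PDGFRA were also lower in both resistant libraries. Summed blood and endothelial markers gave 3.35 and 4.00 CPM, then 4.07 and 2.87 CPM. The part of other cells in the results was not tested. RNA from a larger number of expressing cells and more RNA per cell cannot be told apart in these bulk libraries.

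The RefSeq table of promoters (GRCh38.p14, 250 bases before to 50 after a transcript start) held 10 windows for 7 of the genes. GAL, SCG2 and CHGB were not in it. The windows shown are those of the 3 genes that hold a complete cyclic AMP response element, the site of CREB-family factors, and the first window of PTPRN. All read 5′ to 3′ toward the gene, and capitals mark TGACGTCA, the complete element, and TGACG, its 5-base core, on either strand.

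PCSK1, chr5:96433199-96433498, minus strand: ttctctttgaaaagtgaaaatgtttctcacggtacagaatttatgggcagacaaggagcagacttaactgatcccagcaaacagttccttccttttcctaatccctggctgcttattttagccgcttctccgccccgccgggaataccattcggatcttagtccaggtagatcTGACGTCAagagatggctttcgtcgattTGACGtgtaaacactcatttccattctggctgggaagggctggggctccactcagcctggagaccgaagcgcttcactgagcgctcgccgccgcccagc

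VGF, chr7:101165520-101165819, minus strand: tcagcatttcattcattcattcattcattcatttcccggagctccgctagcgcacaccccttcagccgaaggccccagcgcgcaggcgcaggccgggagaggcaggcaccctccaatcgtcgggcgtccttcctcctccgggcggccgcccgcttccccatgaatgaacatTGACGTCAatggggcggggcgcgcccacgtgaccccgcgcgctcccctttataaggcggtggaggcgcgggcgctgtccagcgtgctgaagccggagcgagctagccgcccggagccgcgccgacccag

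CHGA, chr14:92922900-92923199, plus strand: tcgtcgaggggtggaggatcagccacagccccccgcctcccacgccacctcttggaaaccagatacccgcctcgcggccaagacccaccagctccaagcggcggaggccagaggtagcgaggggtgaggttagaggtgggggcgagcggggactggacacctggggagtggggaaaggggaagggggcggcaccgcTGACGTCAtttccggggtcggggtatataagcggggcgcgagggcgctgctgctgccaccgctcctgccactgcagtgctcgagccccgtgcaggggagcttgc

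PTPRN, chr2:219309352-219309651, minus strand: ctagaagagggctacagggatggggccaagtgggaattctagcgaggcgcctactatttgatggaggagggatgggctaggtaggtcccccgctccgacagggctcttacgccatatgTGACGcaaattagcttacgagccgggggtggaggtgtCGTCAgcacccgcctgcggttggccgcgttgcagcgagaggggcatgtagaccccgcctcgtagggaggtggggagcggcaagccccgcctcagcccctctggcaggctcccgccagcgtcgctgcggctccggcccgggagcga

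The complete element TGACGTCA, which reads the same on both strands, began 77 bases before the start in PCSK1 (chr5:96433318-96433325), 79 before it in VGF (chr7:101165641-101165648) and 54 before it in CHGA (chr14:92923096-92923103). It was in 3 of the 10 windows, and in 649 of all 35116 promoter windows (1.85%). The core TGACG, which lies within every complete element, was in 8 of the 10 windows against 24.6% of all windows. PTPRN had it at 132 and at 95 bases before its first start, the latter on the other strand. An AP-1 site, TGANTCA, was in none of the 10 windows and in 7.71% of all. The left arm of RE1, the element bound by the repressor REST, searched as TTCAGCACC with up to 1 mismatch on either strand, was in 4 windows (those of PTPRN, VGF, SCG5 and the second start of PCSK2) and in 7.68% of all. None of the 10 held it without a mismatch, against 0.376% of all windows. In PTPRN that match overlaps the core at 95 bases. A match of letters does not show that a factor binds there, and counts per gene do not show which start was used.

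**Figure D1:**
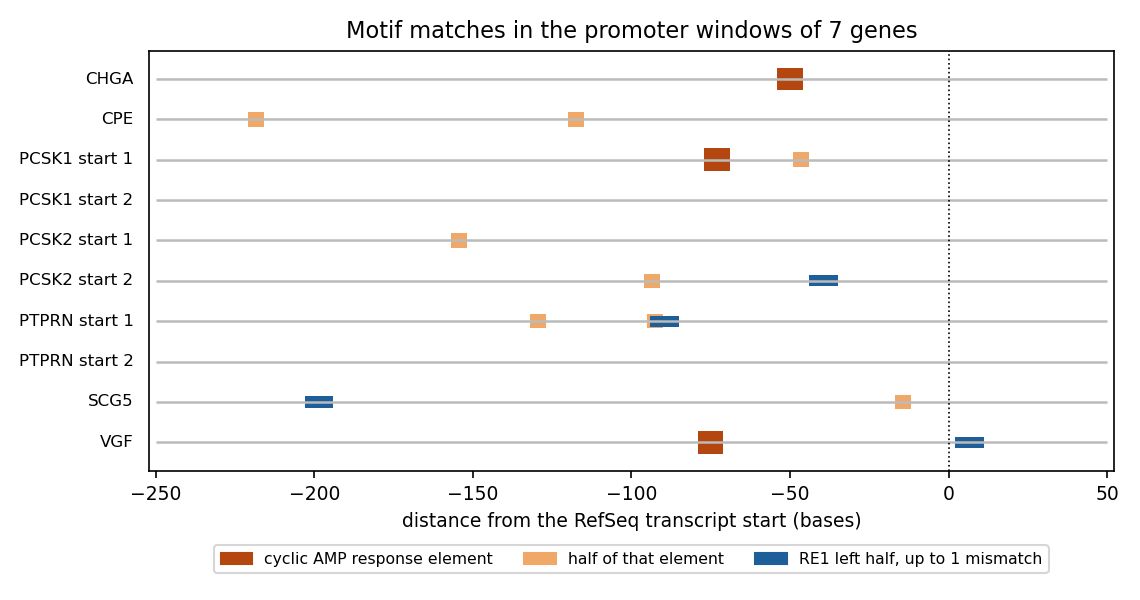
Positions of motif matches along the 10 promoter windows of 7 genes, in bases from the RefSeq transcript start (dotted line). Wide dark boxes are the complete element, narrow light boxes its core and blue bars the left arm of RE1 with up to 1 mismatch. The complete element lies within 79 bases of the start in PCSK1, VGF and CHGA.

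Of the 10 genes, 9 passed edgeR's filter on low counts. PCSK2 did not. Both resistant libraries lay above both controls in 7 of the 10 (PCSK1, PTPRN, GAL, VGF, CHGB, CPE and SCG2), an arrangement found in 22.4% of the 24961 genes tested. Both lay below in 1, SCG5, an arrangement found in 22.2%. The groups overlapped in CHGA and PCSK2. The edgeR fit called 3 members higher against 0.577% of tested genes, and these were PCSK1, PTPRN and GAL, on whose rise the set was centred. It called none lower (0.513%). DESeq2 called 4 higher (the same 3 and CHGB, against 2.51%) and 1 lower (SCG5, against 2.82%). Since this contrast chose the set, nothing is read from these counts. Over the 9 genes the median log2 fold change, resistant over control, was 1.73, and 8 of the 9 values were positive. Over all tested genes the median was 0.01.

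**Figure D2:**
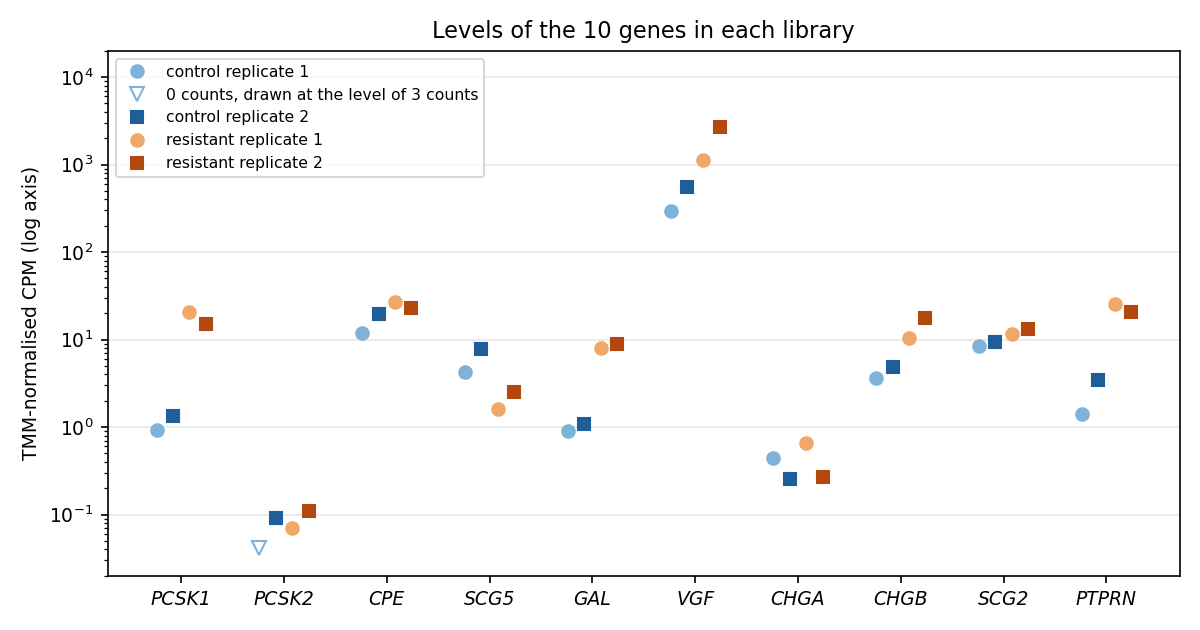
TMM-normalised CPM of the 10 genes in each library, on a log axis. Circles and squares are replicates 1 and 2, blue for control and orange for resistant. The orange points lie above both blue ones in 7 genes and below them in SCG5, and VGF sits far above the other 9 genes in every library.

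PCSK1 (ENSG00000175426.11, chromosome 5, 96390333 to 96434143) encodes prohormone convertase 1/3, the enzyme that makes the first cuts in most precursors. It had 0.922 and 1.34 CPM in control replicates 1 and 2 and 20.8 and 15.1 CPM in resistant replicates 1 and 2. The lower resistant library was 11.3-fold above the higher control, the widest gap among the 10. The means were 1.13 ± 0.295 and 18.0 ± 4.02 CPM (SD, n = 2 per group), a fitted 15.8-fold difference (log2 3.98). In counts these levels were 66 and 116 reads against 1479 and 1250.

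PCSK2 (ENSG00000125851.10, chromosome 20), the second convertase, which acts later in the vesicle, was close to undetected. It had 0 and 8 counts in the controls and 5 and 9 in resistant cells. If each count were an independent read, the 0 in control replicate 1 would allow up to 0.0419 CPM (3 counts, counting error only). Counts in that library were all even and mates were counted singly, so the true bound is higher. The other libraries gave 0.0924, 0.0703 and 0.109 CPM. A difference between the groups was not detectable at this depth. SCG5 (ENSG00000166922.9, chromosome 15) encodes 7B2, the chaperone that PCSK2 needs to mature, and was the 1 member whose resistant libraries were both lower. It had 4.30 and 7.86 CPM in controls and 1.60 and 2.53 in resistant cells, a fitted level 2.94-fold lower (log2 -1.56). The lower control was 1.70-fold above the higher resistant library, while the controls themselves differed 1.83-fold. A readthrough gene on the same strand, ARHGAP11A-SCG5, covers 51.4% of the exonic bases of SCG5. By the counting program's defaults reads in that shared stretch went to neither gene, so the SCG5 values come from the rest of its exons. The readthrough gene itself had 4 and 2 counts in controls and 8 and 4 in resistant cells.

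CPE (ENSG00000109472.14, chromosome 4), the carboxypeptidase that trims the basic residues left by the convertases, had 11.9 and 19.6 CPM in controls and 26.7 and 22.8 in resistant cells. The groups were separated by 1.17-fold, less than the 1.64-fold between the controls. Its fitted log2 difference was 0.65. The 3 enzymes and the chaperone thus took different courses: PCSK1 was 15.8-fold higher, CPE 1.57-fold higher, PCSK2 was close to undetected and SCG5 was lower.

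GAL (ENSG00000069482.7, chromosome 11, 68683779 to 68691175) encodes the precursor of galanin, a neuropeptide. It had 0.894 and 1.09 CPM in controls and 8.05 and 8.81 in resistant cells, with replicates that differed 1.21-fold and 1.09-fold. The fitted difference was 8.49-fold (log2 3.09). VGF (ENSG00000128564.8, chromosome 7, 101162509 to 101165569), a precursor of several neuropeptides that is induced by neurotrophins in neurons, was the most abundant of the 10 in every library. It had 293 and 559 CPM in controls and 1129 and 2722 CPM in resistant cells. By CPM it ranked 479 and 209 among tested genes in controls, then 83 and 26 in resistant cells. In resistant replicate 2 it took 0.264% of all counts. The fitted difference was 4.52-fold (log2 2.18). Replicates of VGF differed 1.91-fold in the controls and 2.41-fold in resistant cells, and the lower resistant library was 2.02-fold above the higher control, so the gap between groups was smaller than the spread within the resistant group.

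The granins differed among themselves. CHGB (ENSG00000089199.10, chromosome 20) had 3.63 and 4.88 CPM in controls and 10.3 and 17.9 in resistant cells (log2 1.73), a gap of 2.12-fold between the nearest libraries. SCG2 (ENSG00000171951.5, chromosome 2), the precursor of secretoneurin, had 8.52 and 9.49 CPM in controls and 11.4 and 13.2 in resistant cells (log2 0.45). CHGA (ENSG00000100604.13, chromosome 14), the granin most used as a neuroendocrine marker, was low, with 0.447 and 0.254 CPM in controls and 0.661 and 0.266 in resistant cells. These were 32 and 22 counts against 47 and 22, and the groups overlapped. CHGA carries the same complete response element as PCSK1 and VGF in its promoter window.

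PTPRN (ENSG00000054356.14, chromosome 2, 219289623 to 219309648) encodes IA-2, a phosphatase-like protein without catalytic activity that spans the vesicle membrane. It had 1.40 and 3.45 CPM in controls and 25.3 and 20.5 in resistant cells, a fitted 9.40-fold difference (log2 3.23), and its controls differed 2.47-fold. PTPRN and SCG2 lie on the long arm of chromosome 2, where other genes were slightly higher in resistant cells. Between 200 and 250 Mb, 187 other protein-coding genes reached 3 CPM in the higher group, and 132 of them had a positive log2 fold change. Their median was 0.14, with quartiles at -0.04 and 0.32, against -0.01 over all such genes of the genome. None of the 187 reached the value of PTPRN, but PTPRN had been chosen for its rise, so nothing is read from that. A part of the region in the values of PTPRN and SCG2 was not tested.

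**Figure D3:**
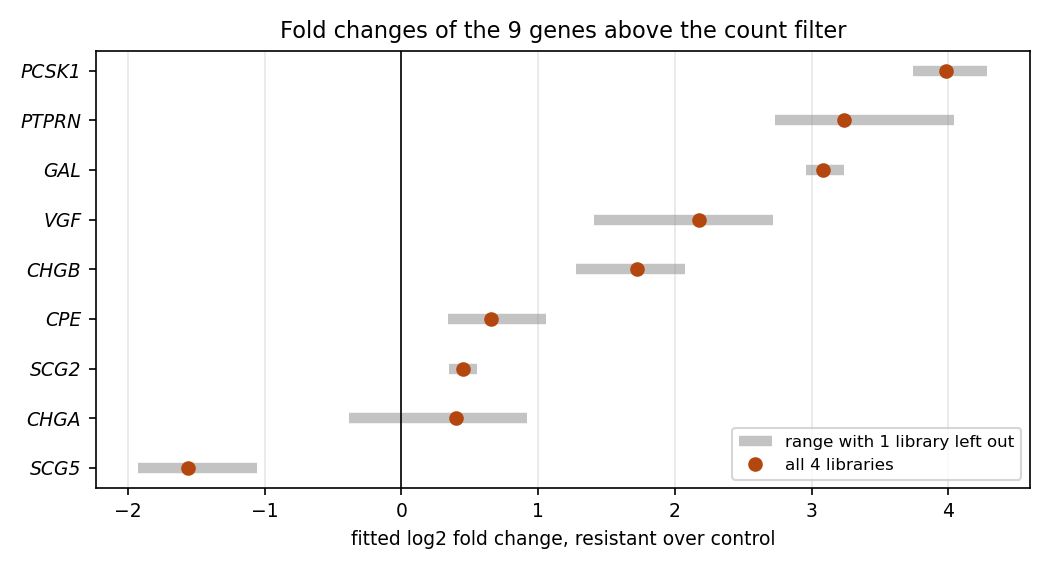
Fitted log2 fold change, resistant over control, of the 9 genes that passed the count filter (points), with the range over the 4 fits that leave out 1 library each (grey bars). The bars of PCSK1, GAL and SCG2 are short, that of CHGA crosses 0, and that of SCG5 lies below 0 throughout.

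With 1 library left out, PCSK1 ranged from 3.74 to 4.28 and GAL from 2.96 to 3.24 on the log2 scale. The fold difference of 3 genes moved by more than 1.5 times. PTPRN had a log2 value of 4.04 without control replicate 2 and 2.73 without control replicate 1. VGF had 1.41 without resistant replicate 2 and 2.72 without control replicate 2. CHGA went from -0.38 when resistant replicate 1 was omitted to 0.92 when resistant replicate 2 was. Without resistant replicate 2, edgeR called PCSK1 alone among the members.

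Divided by exon length, so that genes can be compared with each other, the levels differed widely. In controls VGF stood at 159 CPM per kilobase, followed by CPE at 5.05, SCG2 at 3.50, SCG5 at 2.77, CHGB at 0.958, GAL at 0.761, PTPRN at 0.295, PCSK1 at 0.211, CHGA at 0.116 and PCSK2 at 0.00657. The ranges of both libraries overlapped between the neighbours SCG2 and SCG5, CHGB and GAL, and PTPRN and PCSK1. In resistant cells VGF stood at 719 CPM per kilobase, CPE at 7.94, GAL at 6.48, SCG2 at 4.77, PCSK1 at 3.35, CHGB at 3.17, PTPRN at 2.79, SCG5 at 0.941, CHGA at 0.153 and PCSK2 at 0.0127. GAL had moved above SCG2, and their ranges in resistant cells did not overlap. As computed, SCG5 had moved below PCSK1, CHGB and PTPRN. PCSK1, CHGB and PTPRN could not be ordered beyond their spread. The value of SCG5 per kilobase is too low in both groups, since 51.4% of the exonic bases in its length were shared and not counted. Its place in either order is therefore not established.

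**Figure D4:**
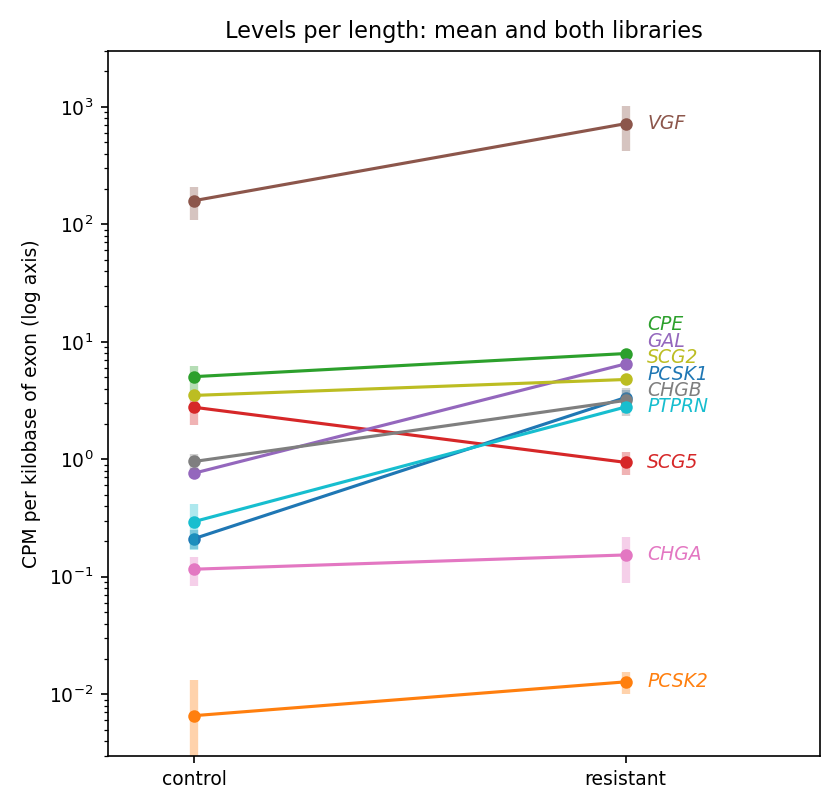
CPM per kilobase of exon, on a log axis, in control and resistant cells. Points joined by a line are means of 2 libraries and pale bars span both libraries; the control bar of PCSK2 runs down to 0, below the axis. GAL ends at 6.48, above SCG2 at 4.77, and PCSK1 and PTPRN end beside CHGB. SCG5 is drawn below them at 0.941, a value that is too low because its length includes exons that were not counted.

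Patterns like those of the 3 leading genes were sought among 11968 other tested genes whose higher group averaged 5 CPM or more, as the root mean square difference of log2(CPM + 0.5), centred on its mean, over the 4 libraries. Nearest to PCSK1 were SORL1 (0.25), ELMOD1 (0.34), ACAN (0.43), TP53I11 (0.44) and LINGO1 (0.48), and PTPRN itself lay at 0.32. Nearest to PTPRN were ELMOD1 (0.11), PAPPA2 (0.26), SORL1 (0.31), ACAN (0.31) and GDNF (0.35). Nearest to GAL were ZNF704 (0.06), MSI1 (0.11), LINGO1 (0.17), TSPAN11 (0.22) and NFASC (0.24). SORL1, which encodes a sorting receptor between the Golgi and endosomes, had 0.391 and 0.635 CPM in controls and 8.50 and 9.48 in resistant cells. ELMOD1 had 0.335 and 1.04 CPM in controls and 9.17 and 7.03 in resistant cells. The measure rests on 4 libraries and is a description only.

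The other genes of the route were tested in edgeR over all 24961 genes. Of 14 tested genes among 17 other convertases and peptide-maturation enzymes, none was called in either direction. An unadjusted p under 0.05 was found for 4 of the 14, against 13.5% of all tested genes, and DESeq2 called 3 higher and 1 lower, against 2.51% and 2.82% of all. Their median log2 fold change was -0.11. FURIN, the ubiquitous Golgi convertase, had 145 and 182 CPM in controls and 140 and 152 in resistant cells (log2 -0.16 ± 0.18 SE, adjusted p = 0.785 in edgeR). MBTPS1, the site-1 protease, had 145 and 181 CPM in controls and 155 and 149 in resistant cells (adjusted p = 0.883 in edgeR). AEBP1, a carboxypeptidase-like protein without known peptide-trimming activity, had 187 and 256 CPM in controls and 112 and 136 in resistant cells (log2 -0.84 ± 0.21, adjusted p = 0.123 in edgeR). It was the gene that DESeq2 called lower (adjusted p = 0.0133), and it also passed in edgeR with no filter (0.00259) and without control replicate 1 (0.00428). PAM, which amidates the ends of many peptides, had 84.5 and 66.5 CPM in controls and 63.8 and 55.7 in resistant cells. The 3 genes that DESeq2 called higher, picked out here after their values were seen, were PCSK5 (0.224 and 0.612 CPM in controls, 2.50 and 2.04 in resistant cells; adjusted p = 0.074 in edgeR), PCSK6 (log2 1.34, adjusted p = 0.0863 in edgeR) and CPM, a membrane carboxypeptidase gene (log2 1.30, adjusted p = 0.0795 in edgeR). The gene of the PCSK1 inhibitor proSAAS, PCSK1N, had at most 4 counts in any library.

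Of 35 tested genes among 41 of vesicle membrane, biogenesis, transport and release, 1 rose and 1 fell in edgeR. The shares over all tested genes were 0.577% and 0.513%. An unadjusted edgeR p under 0.05 was found for 9 of the 35, against 13.5% of all. Both called genes belong to the UNC13 family of priming factors. UNC13A, the neuronal member, rose from 17.9 and 24.0 CPM to 60.9 and 84.7 CPM (log2 1.80 ± 0.23, adjusted p = 0.0247 in edgeR). UNC13D, which primes lytic granules in immune cells, fell from 40.0 and 17.3 CPM to 5.09 and 6.92 CPM (log2 -2.25 ± 0.39, adjusted p = 0.0478 in edgeR). UNC13B, the third member measured, had 48.6 and 52.6 CPM in controls and 55.2 and 57.6 in resistant cells. The call of UNC13A was lost without resistant replicate 2 (adjusted p = 0.122). That of UNC13D was lost without resistant replicate 1 (0.0746) or 2 (0.182), and its log2 value was -1.53 without control replicate 1. The list median was 0.12, 22 of the 35 values were positive, and both resistant libraries were above both controls in 15 of the 35 and below them in 3, against 22.4% and 22.2% of all tested genes. DESeq2 called 5 higher and 1 lower (2.51% and 2.82% of all). Among abundant members, SNTB2 (log2 -0.21, adjusted p = 0.697 in edgeR) and RAB2A (0.05, 0.95) did not pass. SYT7, a calcium sensor of vesicle release, was singled out after its values were seen. It had 0.531 and 5.82 CPM in controls and 26.1 and 23.4 in resistant cells, with the controls far apart. Its log2 fold change was 2.95 ± 0.83 (adjusted p = 0.157 in edgeR), and DESeq2 did not call it either.

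Of 78 other peptide hormone and neuropeptide precursors, 34 passed the filter and were tested. In edgeR 1 was called lower and 0 higher, against 0.513% and 0.577% of all tested genes. KISS1, the kisspeptin precursor gene, fell from 53.6 and 15.0 CPM to 0.281 and 1.52 CPM (log2 -5.22 ± 0.84, adjusted p = 0.0415 in edgeR), and none rose. Its log2 value was -4.02 without control replicate 1, -5.86 without control replicate 2, -4.48 without resistant replicate 1 and -6.92 without resistant replicate 2, where the call was lost (adjusted p = 0.0789). DESeq2 called 2 of the 34 higher and 2 lower (2.51% and 2.82% of all tested genes), and 5 had an unadjusted edgeR p under 0.05 (13.5% of all). The most abundant were ADM2 (14.2 and 41.6 CPM in controls, 47.2 and 64.0 in resistant cells; adjusted p = 0.383 in edgeR), ADM (61.0 and 35.2, then 28.3 and 30.0; 0.277) and STC2 (28.6 and 48.6, then 30.8 and 44.8; 0.98). With no filter edgeR called ADM2 higher (adjusted p = 0.00013) and ADM lower (0.0293), a setting that called 905 genes higher and 961 lower in all. The list median was 0.18. The galanin receptor genes were barely read: GALR1 had 3 counts in control replicate 2 and none elsewhere, and GALR2 and GALR3 reached at most 0.675 and 0.450 CPM (adjusted p = 0.424 in edgeR and 0.871).

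**Figure D5:**
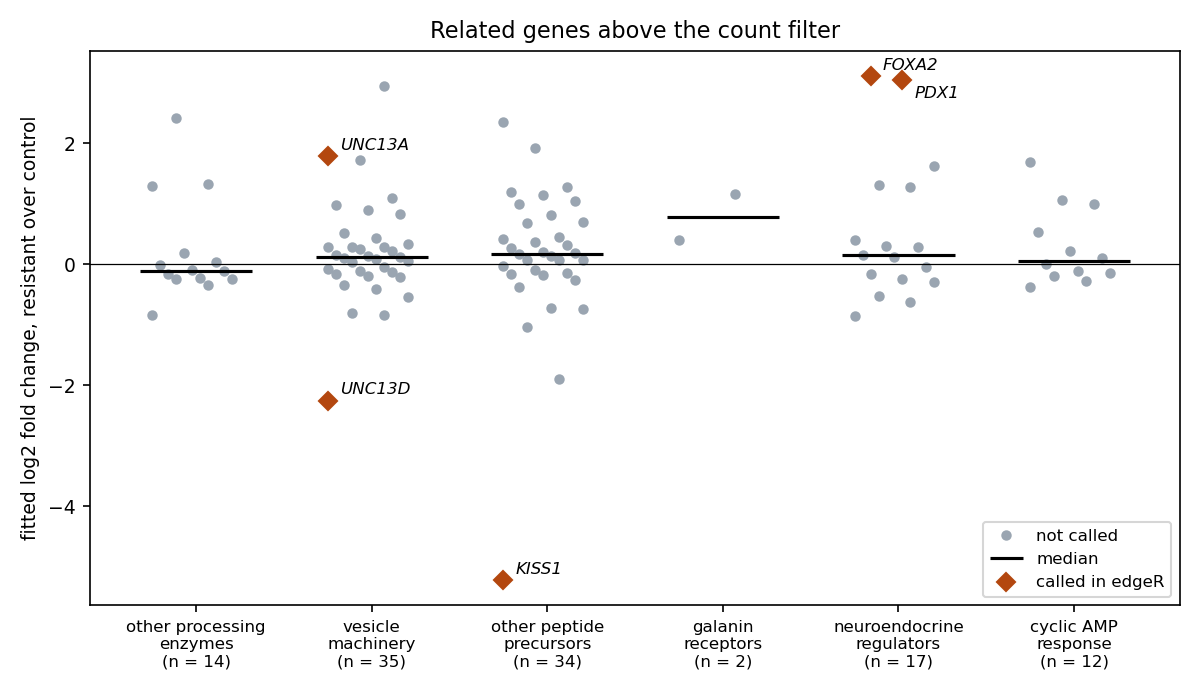
Fitted log2 fold change, resistant over control, of the tested genes of 6 related lists (points), with the median of each list (bar). Diamonds mark the 5 genes past an edgeR adjusted p of 0.05: UNC13A, FOXA2 and PDX1 above 0, and UNC13D and KISS1 below it.

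Among 26 transcription and splicing regulators of neuroendocrine genes, 17 were tested. In edgeR 2 rose and 0 fell, against 0.577% and 0.513% of all tested genes. An unadjusted edgeR p under 0.05 was found for 5 of the 17, against 13.5% of all. FOXA2, a factor of foregut endoderm, rose from 0.447 and 0.716 CPM to 2.90 and 7.25 CPM (log2 3.12 ± 0.51, adjusted p = 0.0415 in edgeR). Without resistant replicate 2 its log2 value was 2.31 and the call was lost (adjusted p = 0.178). PDX1, a pancreatic factor, rose from 0.112 and 0.0808 CPM to 0.703 and 0.907 CPM (log2 3.05 ± 0.54, adjusted p = 0.0498 in edgeR). The PDX1 call was lost without the TMM factors (0.0507) and without resistant replicate 1 (0.0893) or 2 (0.295). REST, the repressor that holds many neuronal and endocrine genes silent elsewhere, had 57.6 and 55.6 CPM in controls and 55.7 and 53.8 in resistant cells (log2 -0.05 ± 0.16, adjusted p = 0.947 in edgeR). Its corepressor gene RCOR1 had 58.6 and 54.4 CPM in controls and 38.0 and 40.6 in resistant cells (log2 -0.52 ± 0.16, adjusted p = 0.201 in edgeR). SRRM3, a neuronal splicing factor gene, differed by 0.40 on the log2 scale (adjusted p = 0.403 in edgeR). DESeq2 called 3 of the 17 higher and none lower (2.51% and 2.82% of all tested genes).

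Of 12 tested genes among 13 of the cyclic AMP response, none passed in edgeR. An unadjusted p under 0.05 was found for 3 of the 12 (13.5% of all tested genes), and DESeq2 called 2 higher, NR4A1 and NR4A3 (2.51% of all). NR4A1, an immediate early receptor gene, had 100 and 208 CPM in controls and 363 and 280 in resistant cells (log2 1.06 ± 0.33, adjusted p = 0.198 in edgeR). It passed in edgeR with no filter (adjusted p = 1.25e-05), a setting that called 905 genes higher in all. CRTC2, a coactivator of CREB, had 70.9 in both controls and 82.8 and 82.6 CPM in resistant cells (adjusted p = 0.617 in edgeR), and PRKACA, a catalytic subunit of protein kinase A, differed by -0.28 on the log2 scale (0.557). The list median was 0.06. Over all tested genes other than the members, 452 had the complete response element in a promoter window. Of these 5 were called higher (1.11%) and 2 lower (0.442%), with a median log2 fold change of 0.04. Of 13187 genes with a window but no element, 0.652% were called higher and 0.591% lower, with a median of -0.00126. Of the listed genes, 7 also carry the element. SST and CARTPT were not tested, and the log2 fold changes of the others lay on both sides of 0: CREM 1.00, KIF1A 0.90, PAX6 0.31, SLC18A2 -0.41 and MITF -0.86. None of these passed edgeR's threshold. KIF1A, from the vesicle list, had an adjusted p of 0.0569 in edgeR and was called higher by DESeq2. DESeq2 did not call the others.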

How the data were processed

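Each of 4 polyA-selected, paired-end A375 libraries has a deposited table of raw counts per gene. Per the file headers, the authors made these counts with featureCounts 2.0.0 and GENCODE release 42, giving an annotation and an output file as the options; by that program's defaults strand was ignored, mates were counted singly and reads shared by overlapping genes were dropped. STAR, DESeq2 and GRCh38 are named in the submitters' processing notes. A further table deposited by the authors holds log2 fold changes for an unnamed comparison.

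Counts were scaled with TMM factors, filtered with filterByExpr (24961 of 62649 genes kept) and tested with edgeR's quasi-likelihood test, two-sided, with group as the sole term and Benjamini-Hochberg adjustment over all tested genes (threshold 0.05; R 4.3.3, edgeR 4.0.16). SE is the size of the log2 fold change over the root of its F statistic. DESeq2 1.42.0 was an alternative, as were RLE size factors, library totals alone, no filter, a replicate block, control replicate 1 halved, and each library left out. With mates counted singly, counts overstate the number of fragments, and floors of 3 counts cover counting error only. Gene types came from GENCODE release 29.

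The members and lists were chosen with earlier results of these data known. Named are all members, list genes past the threshold (at most 6 per direction), the 3 most abundant of each list, and the 5 nearest patterns per leading gene. Any other gene was named after its values were seen, and some genes that the rule names are not reported here. Of the listed genes 12 were not analysed here, and neither were protein sequences.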

Additional observations from a re-analysis of the deposited data

How the results depend on the processing

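Counts of calls varied with the setting. Against 144 higher and 128 lower, DESeq2 called 627 and 705, and edgeR with no filter 905 and 961. With 1 library left out the counts ran from 7 to 1146 higher and from 9 to 1020 lower. Among the members, where 3 were called higher and 0 lower, edgeR with no filter called 5 and 1, DESeq2 called 1 lower, and leaving out 1 library gave from 1 to 6 higher and from 0 to 1 lower; the members' median log2 fold change then ran from 1.28 to 2.07. For the 6 related lists together, where 3 genes were called higher and 2 lower, DESeq2 gave 15 and 4, no filter gave 21 and 6, and leaving out 1 library gave from 0 to 22 higher and from 0 to 5 lower. The replicate numbers of the labels do not show that samples pair: deviations of the replicates numbered 1 had a correlation of -0.00571 over 10089 genes. With the replicate block edgeR called 33 genes higher and 31 lower, 3 members higher (PCSK1, GAL and VGF) and, in the related lists, 2 genes higher and 0 lower; UNC13D, KISS1 and PDX1 then had adjusted p of 0.101, 0.103 and 0.115. Halving control replicate 1 gave 4 members higher (CHGB added). The fold change of CHGA reversed to -0.38 without resistant replicate 1 and was 0.92 without resistant replicate 2. Of the other 8 tested members, none changed sign under any setting run. Low counts, such as 22 to 47 per library for CHGA, limit what this depth can resolve.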

Other observations

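The authors' deposited table of 1533 log2 fold changes names no comparison, and its values entered no test. Of the 10 members, 6 are listed in the authors' deposited table: PCSK1 at 4.12, PTPRN at 3.55, GAL at 2.99, VGF at 2.15, CHGB at 1.73 and SCG5 at -1.40. PCSK2, CPE, SCG2 and CHGA are not among its rows. Over 1336 genes that could be matched, 1334 values of the authors' deposited table had the sign of the resistant over control fold change fitted here, with a median absolute difference of 0.03 on the log2 scale.

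KRT14, a keratin gene of basal keratinocytes that had been listed as a marker of another cell type, fell from 1.62 and 2.08 CPM to 0.309 and 0.314 CPM, and its fitted log2 fold change was -2.56 ± 0.39 (SE, adjusted p = 0.0355 in edgeR). The summed level of the 6 keratinocyte markers was 2.01 and 3.33 CPM in controls and 1.24 and 1.08 CPM in resistant cells.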
